A study of Homo sapiens with 6 samples.

Results

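Genes of the MICOS complex and a close relative were followed in long-read cDNA counts of Calu-6, a cell line long in use that was set up from a carcinoma of the human lung. The members were chosen by symbol: MICOS13, MICOS10, CHCHD3, CHCHD6, IMMT, APOO and CHCHD2. The counts of all transcript models under each symbol were summed, and IMMT was not analysed here. The other 6 members held 26 of the 21472 transcript models in the table, and 5 of them were among the 3888 genes that passed the filter on low counts, out of 10072 genes in all. CHCHD6 did not pass it. The genes were proposed with their change between the groups already known, so every comparison of a member between the groups is a description, with no test.

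MICOS is a protein complex of the inner mitochondrial membrane that holds open the narrow necks, called cristae junctions, where the folds of this membrane meet its outer rim. It has one arm built around IMMT (Mic60), with CHCHD3 (Mic19) and CHCHD6 (Mic25), and another built around MICOS10 (Mic10), with APOO (Mic26) and with MICOS13 (Mic13) as the bridge between the arms. CHCHD2 is a small protein of the space between the mitochondrial membranes with paired cysteine motifs like those of CHCHD3 and CHCHD6, and it is known to interact with MICOS.

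All cells were Calu-6. The labels call them wild type, while the count columns are named Empty, and by the methods of the study such cells stably carried an empty Flag-V5 vector, in both groups alike. One group of 3 libraries had received a non-silencing siRNA (siControl) and the other group of 3 an siRNA against the junction of exon 1 and exon 5 in the Delta 2-4 splice variant of TERT, the catalytic subunit of telomerase (siDelta2-4). Both siRNAs were transfected at 10 nM for 48 h. The comparison asked what followed when that variant was targeted. The study calls its libraries biological replicates, and the labels do not say whether they came from separate cultures, so the p-values measure the spread between these libraries only.

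The 6 libraries held 1037468 to 1309241 counts each, and libraries of a group are told apart by their totals. KRT8, KRT18 and VIM, which mark a carcinoma line with epithelial and mesenchymal features, held 824, 1124 and 987 counts over the 6 libraries. The epithelial marker EPCAM held 13, KRT7 held 41 and KRT19 held 1, and CDH1 and CDH2 were not analysed here. Of 9 markers of blood, fibroblast and endothelial cells, LYZ alone had rows, with 5 counts over the 6 libraries. In these bulk libraries, fewer cells of a kind and less RNA per cell cannot be told apart.

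The 2 genes that the results turn on, MICOS13 and RPL36, lie on opposite strands of chromosome 19, and the junctions of their coding exons are shown because a read that crosses one names its gene. MICOS13 (ENSG00000174917.9) lies at chr19:5678421-5680516 on the minus strand of GRCh38.p14, and RPL36 (ENSG00000130255.13), a protein of the large ribosomal subunit, is annotated from 5674947 to 5691875 on the plus strand. The sequences are given 5′ to 3′ from Gencode 44, with the last 20 bases of one exon in lower case and the first 20 of the next in capitals.
MICOS13-201 exon 1 to exon 2: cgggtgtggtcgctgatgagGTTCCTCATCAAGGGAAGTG
MICOS13-201 exon 2 to exon 3: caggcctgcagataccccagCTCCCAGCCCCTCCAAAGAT
MICOS13-201 exon 3 to exon 4: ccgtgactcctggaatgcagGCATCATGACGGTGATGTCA
RPL36-201 exon 2 to exon 3: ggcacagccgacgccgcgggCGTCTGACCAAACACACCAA
RPL36-201 exon 3 to exon 4: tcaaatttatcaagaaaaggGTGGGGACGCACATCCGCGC
MICOS13-201 is 516 bases long and RPL36-201 is 607, each in 4 exons, and they share no run of 15 bases on either strand. RPL36-201 begins 9778 bases beyond the start site of MICOS13. Of the 8 annotated transcripts of RPL36, 7 begin beyond MICOS13 and 1, RPL36-205, spans it with an intron. No base is shared between the exons of any annotated transcript of the 2 genes.

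**Figure D1:**
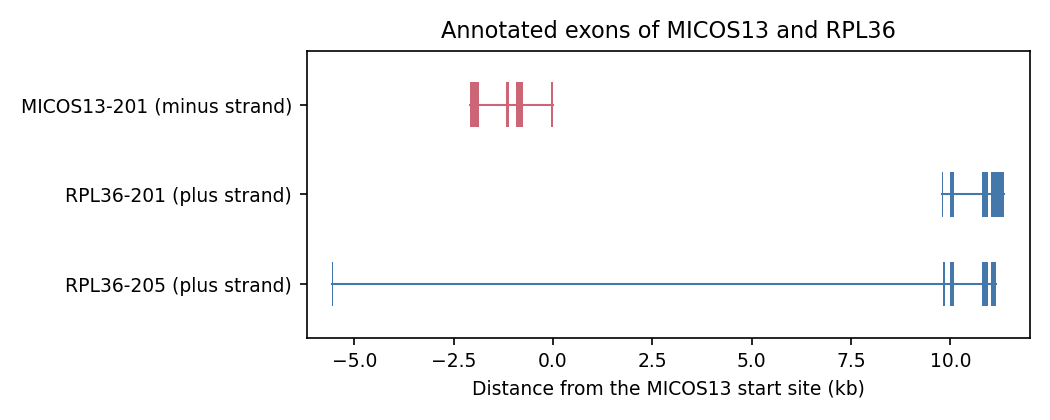
Annotated exons (bars) and introns (lines) of MICOS13-201, RPL36-201 and RPL36-205, by distance in kb from the start site of MICOS13. MICOS13 lies inside the first intron of RPL36-205, and RPL36-201 begins 9778 bases away.

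MICOS13, the bridge between the arms of the complex, was the most counted member by symbol, and the counts under its symbol were lower in siDelta2-4. On the CPM scale, which gives counts relative to the library total after TMM scaling, it stood at 2321, 2034 and 1857 in the siControl libraries of highest, middle and lowest total, and at 1322, 1259 and 1326 in the siDelta2-4 libraries of lowest, middle and highest total. All 3 siDelta2-4 libraries lay below all 3 siControl libraries. The means were 2071 ± 234 and 1302 ± 37.8 CPM (SD, n = 3), a log2 fold change of -0.67 ± 0.08 (SE). Of these counts 1.51% were on annotated transcripts, where the log2 fold change was -0.27 ± 0.23.

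RPL36 on the other strand stood at 1918, 1767 and 1562 CPM in siControl and at 1267, 1201 and 1176 in siDelta2-4, in the same order of libraries. Its groups did not overlap either, and its log2 fold change was -0.53 ± 0.08. Across the 6 libraries the log2 CPM values of MICOS13 and RPL36 gave a Pearson correlation of 0.989, the 12th highest of 3888 genes with MICOS13. The points of that correlation share their libraries and the difference between the groups.

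The counts of MICOS13 made up 54.8%, 53.5% and 54.3% of the counts of the 2 genes in siControl and 51.1%, 51.2% and 53.0% in siDelta2-4. The siDelta2-4 shares were the lower in every library, with group means of 54.2% ± 0.636 and 51.7% ± 1.09 (SD, n = 3), while counting error alone gave 95% Wilson intervals of at most 1.86 points to either side. MICOS13 thus held close to the same number of counts as its partner, 11130 against 9804 over the 6 libraries. With both genes summed as 1 locus, the log2 fold change was -0.60.

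The transcript models of MICOS13 differed from those of the other members. Of its 11130 counts, 168 were on annotated transcripts, a share of 1.51% (95% Wilson interval 1.30 to 1.75%, counting error only). The same share was 98.6% for RPL36, 93.1% for CHCHD2, 92.8% for MICOS10, 77.4% for CHCHD3, 64.6% for APOO and 100% for CHCHD6. Over the 453 coding genes that held 1000 counts or more the median share was 90.9%, and 89 genes had a lower share than MICOS13. At a share of 10% or less there were 99 genes, of which 49 had an annotated gene on the opposite strand with at least 50% of their own count, against 77 of the other 354.

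**Figure D2:**
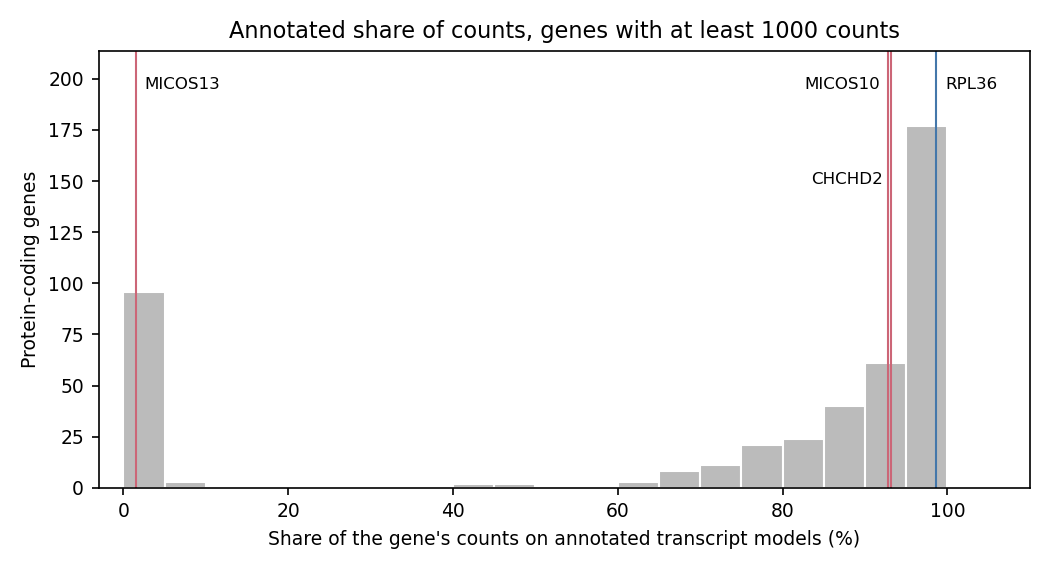
Number of protein-coding genes with at least 1000 counts (vertical axis) by the share of their counts on annotated transcript models (horizontal axis, %). Most genes sit above 60% and a separate group of 99 sits at 10% or less, which holds MICOS13 at 1.51%, while CHCHD2, MICOS10 and RPL36 lie above 92%.

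A single unannotated model, TALONT000312235, held 88.7% of the counts of MICOS13. It was a new combination of known splice sites in 4 exons and 602 bases, with counts of 2105, 1907 and 1709 in siControl and of 1246, 1361 and 1542 in siDelta2-4. Scaled by library, it stood at 1839 ± 208 and 1152 ± 40.8 CPM, a log2 ratio of -0.68. The most counted model of RPL36, the annotated RPL36-201, has 4 exons and 607 bases and stood at 1600 ± 159 and 1087 ± 31.1 CPM, a log2 ratio of -0.56.

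The second model of MICOS13, TALONT000313258, was a partial match of 3 exons and 596 bases with 795 counts. It stood at 147 ± 23.0 CPM in siControl and 94.0 ± 2.31 in siDelta2-4. A further 3 models had 4 exons and 413 bases each, with 125, 113 and 59 counts. RPL36 had an unannotated 4-exon model of 403 bases with 137 counts and an annotated 3-exon model of 556 bases, RPL36-202, with 771 counts. The table gives no coordinates for unannotated models, so which exons the 602-base model holds cannot be told here. No step that uses the strand of a read is stated in the sources used here, so reads of MICOS13 and RPL36 cannot be told apart by strand, and whether the unannotated counts under MICOS13 are transcripts of MICOS13 was not tested.

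The annotated transcripts of MICOS13 gave a smaller difference. MICOS13-201, the 516-base transcript that holds the 3 junctions of MICOS13 given here, gave counts of 33, 23 and 26 in siControl and of 25, 26 and 28 in siDelta2-4. Its groups overlapped, at 26.4 ± 5.22 and 22.0 ± 1.23 CPM. MICOS13-204 had 6 counts and MICOS13-206 had 1. All annotated models together stood at 27.3 ± 5.05 and 23.1 ± 1.21 CPM, and a fit to annotated models alone gave a log2 fold change of -0.27 ± 0.23. The unannotated models together stood at 2044 ± 230 and 1279 ± 36.9 CPM and carried the fall, with a log2 fold change of -0.68.

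**Figure D3:**
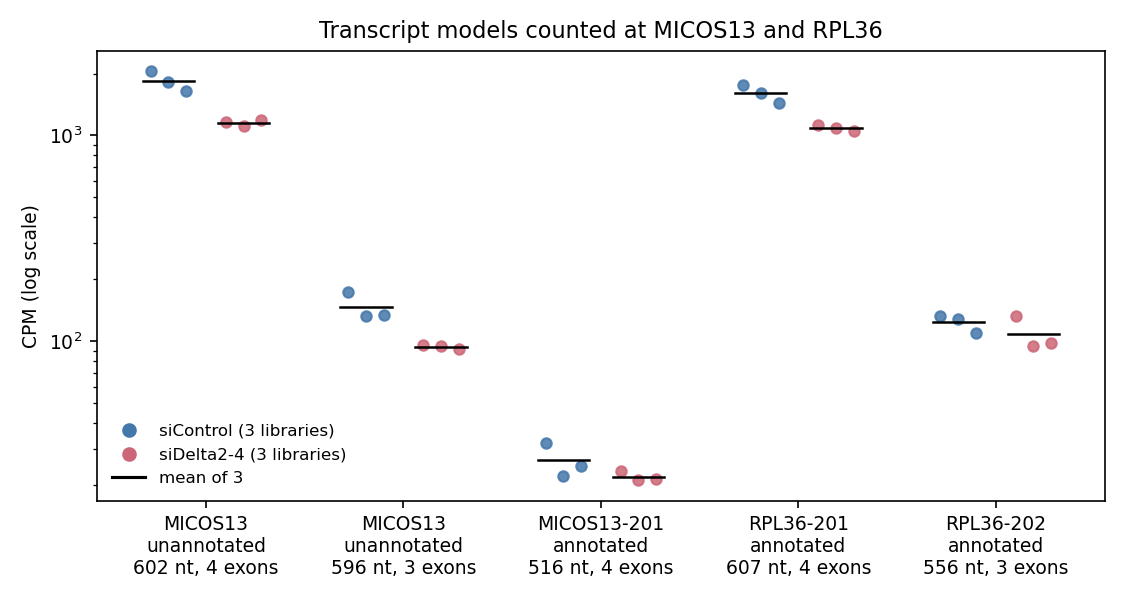
CPM (log axis) of 5 transcript models of MICOS13 and RPL36 in each library of siControl and siDelta2-4, with a bar at the mean of each group of 3. The 602-base model of MICOS13 and RPL36-201 lie close to each other and are lower in siDelta2-4, while MICOS13-201 lies far below both at 26.4 and 22.0 CPM on average.

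The 250 bases before each start are shown because the summed counts under the 2 symbols moved together. For MICOS13 this held for the unannotated models, while annotated models alone gave a log2 fold change of -0.27 ± 0.23 (SE). Whether the 2 genes share regulation was not tested. The windows come from the GRCh38.p14 genome at the start sites of RefSeq. In capitals are matches of GCGCATGC or its reverse GCATGCGC, the core of the motif bound by NRF1, a regulator of nuclear genes for mitochondria. One form of the motif of ETS factors, CCGGAA or its reverse TTCCGG, was searched as well, and other forms were not.
MICOS13, chr19:5680517-5680766, minus strand: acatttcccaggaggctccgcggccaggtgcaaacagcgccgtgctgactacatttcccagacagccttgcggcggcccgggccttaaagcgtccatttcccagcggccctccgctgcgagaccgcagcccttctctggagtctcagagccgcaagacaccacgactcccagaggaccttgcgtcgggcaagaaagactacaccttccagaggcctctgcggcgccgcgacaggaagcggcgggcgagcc
RPL36, chr19:5690045-5690294, plus strand: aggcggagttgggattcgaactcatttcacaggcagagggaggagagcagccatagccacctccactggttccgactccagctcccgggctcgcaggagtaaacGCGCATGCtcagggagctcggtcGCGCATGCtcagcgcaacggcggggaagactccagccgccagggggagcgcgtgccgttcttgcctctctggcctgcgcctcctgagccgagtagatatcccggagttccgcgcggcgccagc
The window of RPL36 held GCGCATGC 2 times and that of MICOS13 held neither of the strings searched. GCGCATGC or its reverse was found in 2.63% of 35116 such windows, and CCGGAA or its reverse in 14.5%. The windows of IMMT, CHCHD2, MICOS10 and APOO held the latter 3, 2, 1 and 1 times, those of CHCHD3 and CHCHD6 held it 0 times, and no member's window held GCGCATGC. These matches describe the letters of the windows alone.

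MICOS10 (ENSG00000173436.15, chr1:19484403-19629821, plus strand) encodes the subunit whose oligomers bend the membrane at the junction. It stood at 370, 366 and 352 CPM in siControl and 337, 350 and 345 in siDelta2-4. The groups did not overlap, yet the nearest libraries stood at 352 and 350 CPM. The means were 363 ± 9.97 and 344 ± 6.58 CPM (SD, n = 3), a log2 fold change of -0.08 ± 0.09. MICOS10-201, of 3723 bases, held 88.4% of its counts, at 316 ± 12.8 and 308 ± 1.46 CPM. Among its minor transcripts, MICOS10-203 gave counts of 7, 7 and 9 in siControl and of 3, 4 and 5 in siDelta2-4, without overlap but few.

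APOO (ENSG00000184831.14, chrX:23833353-23907938, minus strand), an apolipoprotein family subunit of the same arm, was among the least counted. Its libraries gave counts of 16, 15 and 9 in siControl and of 16, 24 and 16 in siDelta2-4. The groups overlapped, at 12.9 ± 3.73 and 15.6 ± 3.65 CPM, and the log2 fold change was 0.27 ± 0.32. APOO-201 held 54 of its 96 counts and an unannotated 9-exon model held 34.

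CHCHD3 (ENSG00000106554.13, chr7:132784870-133082090, minus strand), which joins IMMT to the outer membrane machinery, stood at 58.5, 67.1 and 62.3 CPM in siControl and 69.3, 76.4 and 60.6 in siDelta2-4. The siDelta2-4 library of highest total lay inside the siControl range. The means were 62.6 ± 4.33 and 68.8 ± 7.89 CPM, a log2 fold change of 0.13 ± 0.16. CHCHD3-201 held 342 of its 442 counts. An unannotated 2-exon model of 1207 bases gave counts of 3, 5 and 3 in siControl and of 8, 7 and 9 in siDelta2-4. These groups did not overlap. All unannotated models in the table had at least 5 counts in every siDelta2-4 library, so the choice of rows favours a higher value there. Nothing is read from this difference.

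CHCHD6 (ENSG00000159685.11, chr3:126704240-126960420, plus strand), the relative of CHCHD3 in the same arm, gave counts of 5, 8 and 6 in siControl and of 16, 12 and 10 in siDelta2-4, all on CHCHD6-201. Its CPM values were 6.10 ± 1.43 and 10.8 ± 3.77 and did not overlap, although the nearest pair of libraries agreed to 3 digits. It did not pass the filter on low counts, and the same fit without a filter gave a log2 fold change of 0.77.

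CHCHD2 (ENSG00000106153.13, chr7:56101573-56106476, minus strand) was the second most counted member. It stood at 675, 736 and 776 CPM in siControl and 644, 559 and 564 in siDelta2-4, and the groups did not overlap. The means were 729 ± 50.9 and 589 ± 47.8 CPM, a log2 fold change of -0.31 ± 0.09. CHCHD2-201 held 92.9% of its counts and stood at 674 ± 43.0 and 550 ± 46.0 CPM, so the difference lay on the annotated transcript.

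**Figure D4:**
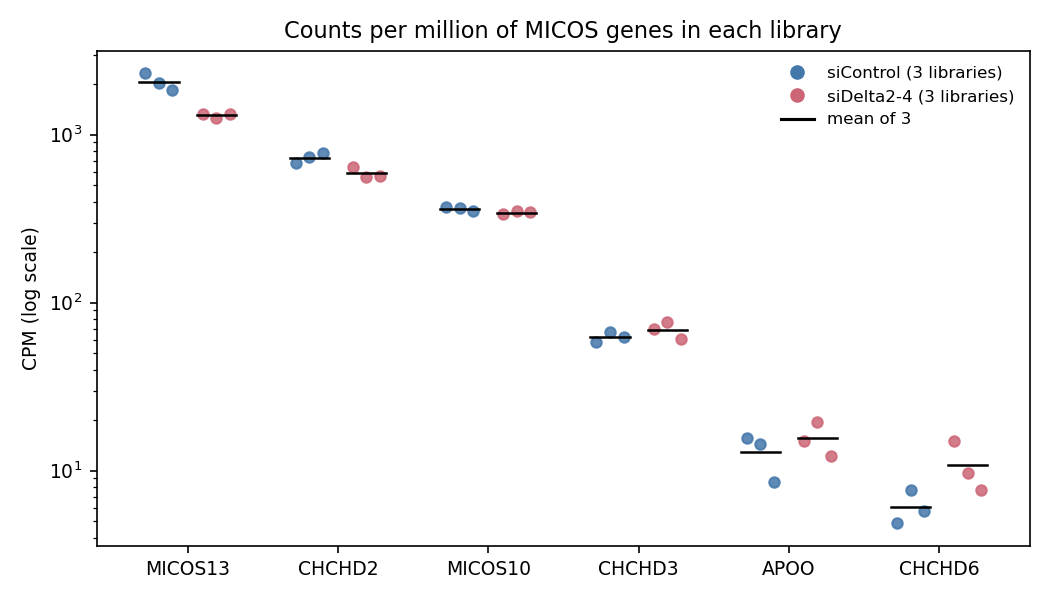
CPM (log axis) of the 6 members in each library, siControl and siDelta2-4, with a bar at the mean of each group of 3. MICOS13, with 1.51% of its counts on annotated transcripts, lies highest and, like CHCHD2, is lower in siDelta2-4. CHCHD3 and APOO overlap between the groups.

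Of the 5 members that passed the filter, 2 (MICOS13 and CHCHD2) were called at an adjusted p under 0.1 with edgeR, both lower, where 5.97% of the 3888 genes were called lower. Groups did not overlap for MICOS13, MICOS10 and CHCHD2 on the lower side, as for 11.9% of the genes tested. CHCHD6 did not overlap on the higher side, where the share was 14.1% of the genes tested. CHCHD6 was not among those genes, so that share is no measure for a gene of so few counts. The members were proposed from this comparison, so their calls, here and in the alternative fits that follow, are no test of them. Nothing is read from these counts. The median log2 fold change of the 5 members was -0.08, against 0.03 for all genes tested. CHCHD2 fell short of the threshold without the siControl library of middle total and without the siDelta2-4 library of middle or of highest total, fits that called 2.74%, 2.25% and 2.95% of genes lower. Its log2 fold change stayed between -0.38 and -0.27 with each library left out. MICOS13 fell short of it when annotated models alone were fitted, where 7.12% of genes were called lower. MICOS10 was called lower when a trend on transcript length was removed, with a log2 fold change of -0.26, where 6.89% of genes were.

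**Figure D5:**
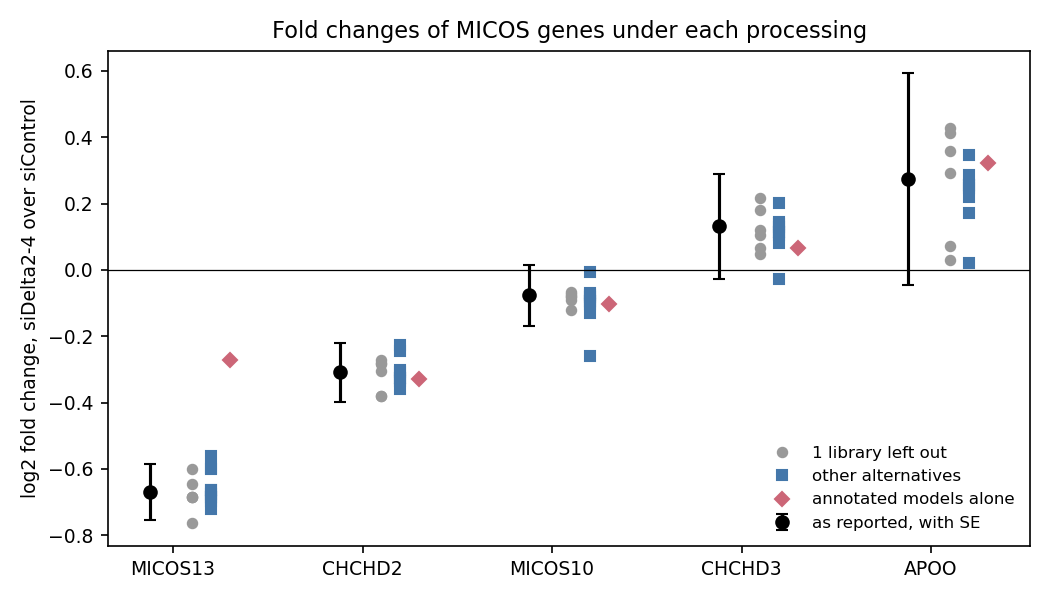
Log2 fold change (siDelta2-4 over siControl) of the 5 fitted members under each way of processing the counts. MICOS13 runs from -0.76 to -0.60 with 1 library left out and moves to -0.27 on annotated models, and CHCHD2 stays between -0.38 and -0.23.

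Levels of the members were set side by side per length, as CPM per kb of each model in siControl. Division by length raises short models against long ones. On all models MICOS13 came first at 3493 ± 392, then CHCHD2 at 919 ± 65.2, MICOS10 at 152 ± 16.9, CHCHD3 at 51.9 ± 5.16, APOO at 12.4 ± 3.83 and CHCHD6 at 6.10 ± 1.43. On annotated models alone the order was CHCHD2 at 849 ± 55.9, MICOS10 at 103 ± 1.22, MICOS13 at 52.6 ± 9.83, CHCHD3 at 30.6 ± 0.965, APOO at 7.49 ± 2.08 and CHCHD6 at 6.10 ± 1.43. Per kb, MICOS13 thus moved from the first place to the third. APOO and CHCHD6 stood within their spread of each other per kb on annotated models but not on all models. Without division by length, annotated models in siControl stood at 676 CPM for CHCHD2, 336 for MICOS10, 49.1 for CHCHD3 and 27.3 for MICOS13. There MICOS13 came after CHCHD3, so its place depends on the measure.

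CHCHD3 and MICOS10 hold copies of other genes inside their annotated spans, whose counts are listed apart from theirs. MIR3654 (chr7:133034860-133034915, minus strand), annotated as a microRNA inside CHCHD3, had 2721 counts, 6.16 times those of CHCHD3. Its hairpin from RefSeq (GRCh38.p14) is shown because these are libraries of long polyadenylated RNA, with the 19 bases of the mature form in capitals.
MIR3654: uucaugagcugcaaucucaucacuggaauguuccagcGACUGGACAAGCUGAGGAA
All 56 bases are found in the coding sequence of EEF1G, a translation elongation factor with 7070 counts. The hairpin lies within ENSG00000283041, a copy that matches the transcript of EEF1G at 99.2% of 1314 bases. This copy had few counts of its own, 8, 8 and 11 in siControl and 3, 5 and 7 in siDelta2-4, lower where MIR3654 was not. MIR3654 had a log2 fold change of 0.17 ± 0.11 (edgeR adjusted p = 0.365) and EEF1G one of 0.14 ± 0.09 (adjusted p = 0.384).

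Inside MICOS10, ENSG00000226396 had 155 counts and matches RPS14-201 at 95.4% of 456 bases. Reads of such copies and their parents may be split between them, so their counts are uncertain. With these copies added to them, the log2 fold changes were 0.15 for CHCHD3 and -0.08 for MICOS10. The pseudogenes CHCHD2P6, MICOS10P2 and MICOS10P3 had 6, 9 and 6 counts. CAPZB, which overlaps the start of the annotated span of MICOS10 on the other strand, had 73, and ENSG00000273080, which overlaps IMMT on the other strand, had 1.

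The partners of MICOS and other proteins that shape cristae were given by a list of 27 symbols, of which 18 genes had rows and 11 were tested. This list and the CX9C list that follows were chosen with earlier results of these data known, so their calls and p-values are descriptions. By edgeR 0 were called higher and 2 lower at an adjusted p under 0.1, where 5.97% of the 3888 genes tested were called lower and 272 of the 3888 higher. DESeq2 called the same 2, ROMO1 and STOML2, where it called 201 genes lower in all. By edgeR 2 passed an unadjusted p under 0.05, with no share over all genes given for that p. The list median was -0.03 against 0.03 for all genes tested. ROMO1, a small inner membrane protein linked to cristae shape, stood at 223, 181 and 152 CPM in siControl and 133, 135 and 141 in siDelta2-4, with no overlap. It fell by 0.44 ± 0.13 on the log2 scale (edgeR adjusted p = 0.0281). STOML2, a scaffold of the inner membrane, fell by 0.50 ± 0.17 (adjusted p = 0.0731), with groups that overlapped at 79.7 ± 15.9 and 56.4 ± 10.4 CPM. ROMO1 lost the call without 3 of the 6 libraries, namely the siControl library of highest total and the siDelta2-4 libraries of lowest and middle total. STOML2 lost it without the siControl library of lowest total and without the siDelta2-4 libraries of lowest and highest total. The next largest value was -0.35 ± 0.24 for PHB2, a prohibitin (adjusted p = 0.414). Of the 170 counts of PHB2, 0 were on annotated models.

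The other proteins with paired CX9C motifs and the machinery that imports them between the membranes were given by 28 symbols, of which 27 had rows and 24 were tested. By edgeR 2 were called lower and 0 higher, against 5.97% of the 3888 genes called lower and 272 of the 3888 called higher. The median was -0.04, and 7 had an unadjusted p under 0.05, with no share over all genes given for that p. TIMM13, a small import chaperone, stood at 99.4, 89.2 and 88.1 CPM in siControl and 71.2, 66.6 and 66.0 in siDelta2-4. The groups did not overlap, and it fell by 0.44 ± 0.14 on the log2 scale (edgeR adjusted p = 0.0551). TMPRSS9 on the opposite strand held 563 counts against the 531 of TIMM13, with a log2 fold change of -0.22 (edgeR adjusted p = 0.398). Annotated models held 100% of the counts of TIMM13. NDUFB7, a subunit of respiratory complex I, fell by 0.48 ± 0.17 (adjusted p = 0.0770), from 86.6 ± 19.2 to 62.1 ± 9.28 CPM, and its nearest libraries stood at 71.8 and 71.5 CPM. TIMM13 lost the call without the siControl library of highest or middle total and without the siDelta2-4 library of middle or highest total. NDUFB7 kept it in 1 of 6 fits with 1 library left out, the fit without the siControl library of lowest total, which called 1041 genes in place of 504. DESeq2 called TIMM13 and, in place of NDUFB7, TIMM10, both lower, where it called 201 genes lower in all. TIMM8B, an import chaperone, and NDUFA8, a complex I subunit, were singled out after their values were seen, as list genes whose groups did not overlap on the higher side. Their log2 fold changes were 0.30 ± 0.12 and 0.35 ± 0.15 (edgeR adjusted p = 0.111 and 0.142), and with library totals alone they were the list's 2 calls. That fit called 361 of 3888 genes higher. NKAPD1 on the opposite strand of TIMM8B held 839 counts against the 881 of TIMM8B, with a log2 fold change of -0.04 (edgeR adjusted p = 0.893). Annotated models held 100% of the counts of TIMM8B. CMC4 and CHCHD5 had log2 fold changes of -0.47 ± 0.30 and -0.47 ± 0.22 (adjusted p = 0.365 and 0.188).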

How the data were processed

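RNA of Calu-6 cells was sequenced by the authors as pooled, barcoded PCR-cDNA libraries on 1 nanopore flow cell. Per the labels and the study's methods, the authors aligned reads with minimap2 2.14 to GRCh38.p14, used SAMtools 1.13, corrected the reads with TranscriptClean and counted transcript models with TALON against Gencode 44, at a minimum identity of 60% and coverage of 80%. The authors deposited raw counts per transcript model, not normalised. A model outside the annotation was kept by the authors if 5 reads in each of 3 samples held it. All 6398 unannotated models in the table had at least 5 counts in every siDelta2-4 library and 5173 of them in every siControl library. Of the 21472 models, 0 lacked counts over siDelta2-4 and 4526 lacked them over siControl, so the rows were not chosen alike in both groups.

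Columns were matched to groups by the siRNA in their names. Counts were summed per gene and tested in edgeR 4.0.16 (R 4.3.3) with filterByExpr, TMM, a two-sided quasi-likelihood test of 3 against 3 libraries with no covariate and Benjamini-Hochberg adjustment, called under 0.1. Standard errors were obtained as the log2 fold change over the root of F. Correlations used log2 CPM with a prior count of 2. Depth was 1037468 to 1309241 counts per library, and Wilson intervals (95%) cover counting error only. Sequences came from Gencode 44, GRCh38.p14 and RefSeq (the upstream windows of the GRCh38.p14 table and the hairpin), and matches from BLAST 2.17.0. The script was tested on simulated counts.

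The members and lists were chosen with earlier results of these data known. Named were the members, genes overlapping them (with 1 gene not reported here), pseudogenes named after them, every called gene and the 3 with the largest change in each list, and the genes most correlated with each member (5 for MICOS13, 3 for the others). EEF1G and RPS14 (parents of the copies), TMPRSS9 and NKAPD1 were added after their values were seen. Alternatives were DESeq2 1.42.0, its size factors, unscaled library totals, TMM leaving out genes of ribosomal proteins and of the mitochondrial genome, no filter, at least 10 counts in every library, annotated models only, a length trend removed (loess span 0.4), a replicate block on the column number, an adjusted p under 0.05, MICOS13 and RPL36 summed, and each library left out. Members summed with the copies inside them and the unannotated models of MICOS13 alone were chosen after seeing the data.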

Additional observations from a re-analysis of the deposited data

How the results depend on the processing

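As reported, 504 genes were called. The count was 279 with the DESeq2 Wald test (78 higher and 201 lower), 252 with annotated models only, 299 with the replicate block and 304 at an adjusted p under 0.05, and 194 to 1041 with each library left out (194 without the siDelta2-4 library of middle total, 1041 without the siControl library of lowest total). The split was 272 higher and 232 lower, but 361 and 152 with library totals alone and 202 and 268 with the length trend removed. The 2 cristae genes became 1 with the replicate block and 1 at the stricter threshold, and 0 to 2 with each library left out. The 2 CX9C genes became 5 with annotated models only, 0 with the replicate block, 0 at the stricter threshold and 0 to 8 with each library left out. The fit with 5 called 132 of 1854 genes lower, and the fit with 8 called 487 of 4098 lower. Which genes were called changed with the scaling. Library totals alone called 2 CX9C genes higher, TIMM8B and NDUFA8, and 0 lower. With the length trend removed the same 2 were called higher and 1, TIMM13, lower. TIMM13 and NDUFB7 themselves stayed negative across the alternatives, at log2 fold changes of -0.61 to -0.37 and of -0.62 to -0.31. The cristae calls were 1 higher and 1 lower with library totals alone. The numbers in the column names are not stated to mark a shared batch, so the block shares a number only.

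The log2 fold change of MICOS13 was negative under all 17 alternatives. Apart from the fit to annotated models only, it lay between -0.76 and -0.56, against -0.67 ± 0.08 (SE) as reported. It was -0.76 to -0.60 with each library left out and -0.27 with annotated models only. Its share of the locus was 53.0% on average, 1.72% with annotated models only, 98.8% with unannotated models only and 52.6 to 53.4% with each library left out. CHCHD3 changed sign to -0.03 when the length trend was removed, MICOS10 ran from -0.26 (called, with that trend removed) to -0.01, and APOO from 0.02 to 0.43. For APOO and CHCHD6, 96 and 57 counts in all limit what can be seen. The cause was not tested for any of these.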

Other observations

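The tested genes whose log2 CPM was most like that of MICOS13 over the 6 libraries were DBI, which binds acyl-CoA, at a Pearson r of 0.998, the unannotated TALONG000081868 at 0.996 and TALONG000073971 at 0.995, H2AZ1-DT at 0.994 and TALONG000066447 at 0.993. For MICOS10 they were HSPB1, a small heat shock protein, at 0.985, TALONG000065504 at 0.982 and TALONG000075941 at 0.977. For CHCHD2 they were NDUFS7, a complex I subunit, at 0.992, TALONG000066908 at 0.992 and ENSG00000279467 at 0.989. CHCHD3 was most like BZW2 at 0.982, PSMA7 at 0.969 and TALONG000068252 at 0.960, and APOO most like VAPA at 0.970, with TALONG000064077 and TALONG000071195 both at 0.957. Among the members, MICOS13 had an r of 0.876 with MICOS10, 0.756 with CHCHD2, -0.26 with APOO and -0.59 with CHCHD3. These values rest on 6 points that share libraries and groups, and the highest of 3888 genes is high by selection.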
